A study of Mus musculus with 6 samples.

Results

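The 9 genes described here encode the vascular endothelial growth factor (VEGF) ligands Vegfa, Vegfb, Vegfc and Pgf, the receptor tyrosine kinases Flt1, Kdr and Flt4, and the neuropilins Nrp1 and Nrp2. They were chosen by symbol, and every non-control array probe whose RefSeq accession belongs to one of them was used. That gave 12 probes on 22 spots, of 55681 probes on 59305 spots per array. All 9 genes had at least 1 probe, and all 12 probes passed the filter, which asked for a signal well above background on 3 or more of the 6 arrays.

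RNA came from tibial cartilage of C57BL/6 mice and was hybridised to Agilent 1-colour mouse expression arrays, 1 array per mouse. The groups were 3 mice labelled control, whose genotype is not described further in the labels, and 3 mice labelled ADAM10 flox/flox-Col2a1-Cre, called mutants here. In the mutants a Cre recombinase under the Col2a1 promoter, which is active in chondrocytes, acts on loxP-flanked alleles of Adam10, a membrane protease that sheds cell surface proteins. The promoter is not one of endothelial cells, and no label states the age of the mice. The comparison asks which transcripts differ in cartilage that carries this deletion.

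VEGF ligands are secreted dimers that bind receptor tyrosine kinases on the surface of endothelial cells. Vegfa signals mainly through Kdr, while Flt1 binds Vegfa, Vegfb and Pgf and can act as a trap for them, and Vegfc acts on Flt4 in lymphatic vessels. Neuropilins are co-receptors that also bind class 3 semaphorins together with plexins. Healthy growth plate cartilage has no vessels, and hypertrophic chondrocytes secrete Vegfa, which draws vessels and resorbing cells to the border with bone. Flt1, Kdr and Flt4 are best known from endothelial cells.

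Signals are log2 values of the processed spot intensity relative to the 75th percentile of its array, and differences are mutant minus control. A level can be compared between arrays for one probe, not between probes. The 75th percentile ranged from 510.3 to 631.0 intensity units, 0 spots were saturated, and all arrays lay on 1 slide. Row 1 of the slide held the 3 controls and mutant 1, and row 2 held mutants 2 and 3. On these 2 mutant arrays slide row and genotype cannot be told apart. Adam10 signal was lower on every mutant array than on every control array (difference -1.88, SE 0.53, unadjusted p 0.0103, adjusted p 0.995), and its 1 probe may lie outside the deleted part. Mutant 2 stood apart from the other arrays. It lay at 81.8 on the first principal component, which held 42.9% of the variance, with control 1 at the other end at -63.4. On control 1 and mutant 3 Xist read above Ddx3y, a gene of the Y chromosome, and on the other 4 arrays it read below, so both groups differed within themselves in these sex-linked transcripts. All 17 chondrocyte markers were measured, and Col2a1, the main collagen of cartilage, had a mean signal of 10.03 ± 0.07 in controls against 9.97 ± 0.12 in mutants (SD, n = 3 each). Its difference of -0.07 was the lowest of this list, where 15 of 17 markers were above 0 (21201 of all 35228 probes), with a median of 0.28. Without control 1 and mutant 2, 9 of the 17 were above 0 (16016 of all probes), with a median of 0.0026.

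Across the whole table, limma called 0 of 35228 probes (0%) at an adjusted p below 0.05, and 1213 probes (3.44%) had an unadjusted p below 0.05. Accordingly, 0 of the 12 member probes were called, each with an adjusted p of 0.995. At an unadjusted p below 0.05, 2 member probes were higher in mutants, both of Vegfa, against a background of 1.66% of probes, and 0 were lower, against a background of 1.78%. The groups did not overlap for these 2 Vegfa probes in the higher direction, where the background was 5.28%, and for 1 probe, of Pgf, in the lower direction, where it was 3.51%. With 12 probes, counts of this size are a description of these members and not a test of the family.

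**Figure D1:**
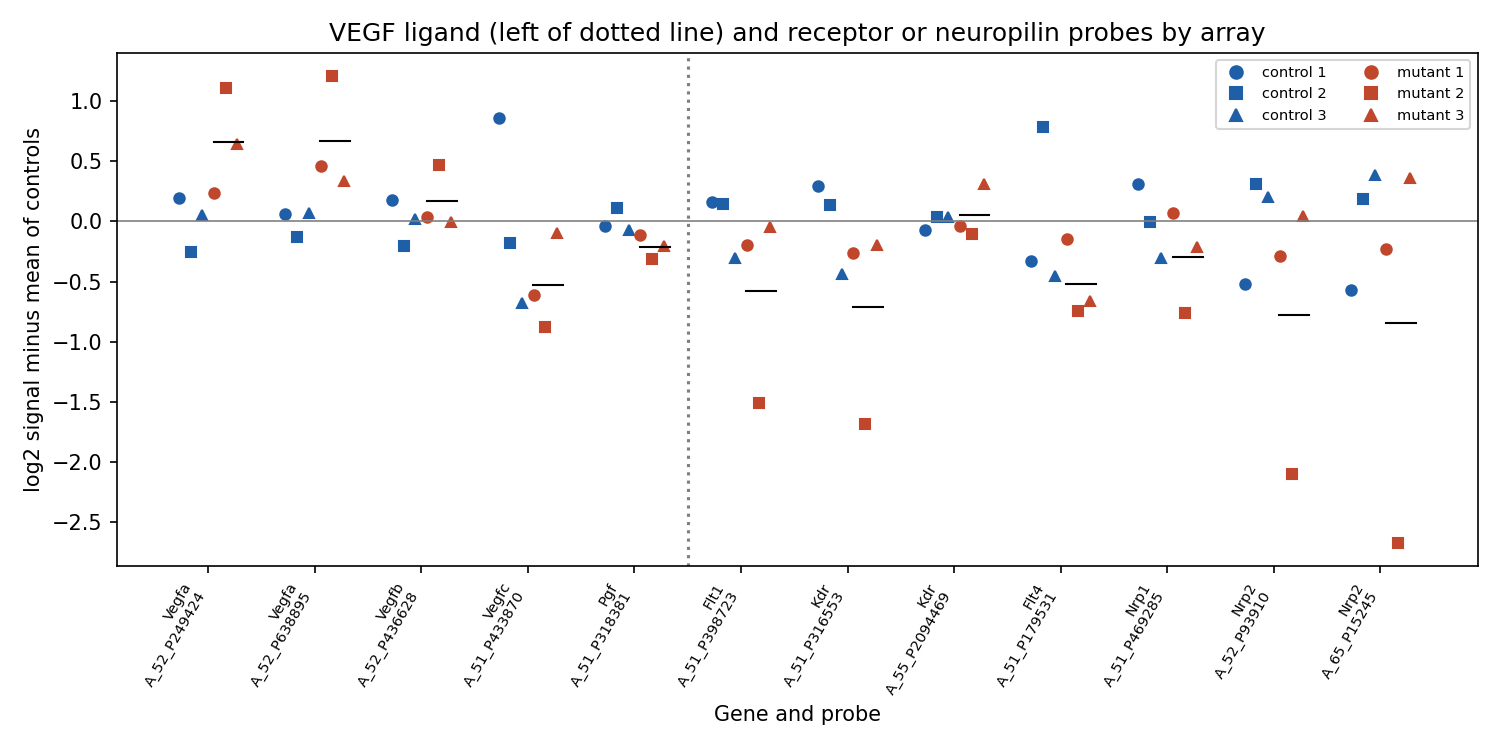
Log2 signal of each of the 12 member probes on each array, minus the mean of the 3 controls (y axis), by gene and probe (x axis). Blue points are controls, red points are mutants, marker shape gives the mouse number, and short black lines are mutant means. Mutant 2 (red square) is highest for both Vegfa probes and lowest for all 7 receptor and neuropilin probes. Of all 35228 probes, 36.7% were highest and 18.3% lowest on mutant 2.

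Vegfa, the main angiogenic ligand and a product of hypertrophic chondrocytes, was the only member whose 2 probes both read higher on every mutant array than on every control array. The brighter probe (A_52_P638895, 2 spots) had mean intensities of 2804, 2301 and 2433 units on controls 1 to 3 and 3937, 6249 and 2928 units on mutants 1 to 3. In log2 signal these were 2.24, 2.05 and 2.25 in controls and 2.64, 3.39 and 2.52 in mutants. Mutant 2 was the highest array, as it was for 36.7% of all 35228 probes, and mutants 1 and 3 lay closer to the controls. The difference was 0.67 (SE 0.24, 95% interval 0.08 to 1.25), or 1.59-fold, with an unadjusted p of 0.0307. The other probe (A_52_P249424, 1 spot) read 0.40, -0.05 and 0.26 in controls and 0.44, 1.32 and 0.85 in mutants. Its difference was 0.66 (SE 0.25, 95% interval 0.07 to 1.26) with an unadjusted p of 0.0338, so the size was the same for both probes while the order of mutants 1 and 3 was not.

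How far the Vegfa values rest on single arrays was read from refits. Without mutant 2 the brighter probe differed by 0.40 (unadjusted p 0.0275) and the dimmer one by 0.44 (unadjusted p 0.0800). For the brighter probe the unadjusted p passed 0.05 without control 1 (0.0589), without control 2 (0.0882) and without control 3 (0.0551), with differences of 0.60 to 0.70. The dimmer probe had an unadjusted p of 0.107 without control 2, 0.0619 without control 3 and 0.0713 without mutant 3. With row 1 of the slide alone, which held the 3 controls and mutant 1, the differences were 0.46 for the brighter and 0.24 for the dimmer probe, with an unadjusted p of 0.0651 and 0.384; the mutant side is then 1 array, assumed to vary like the controls. Mutant 2, where Vegfa was highest, also had the highest score of the 17 chondrocyte markers (0.40, against -0.32 to 0.03 elsewhere; a score is the mean log2 signal of genes each centred on its own mean), while its score of 11 hypertrophic chondrocyte markers was -0.32, against -0.36 to 0.28 elsewhere. The summed linear signal of the chondrocyte markers was 3530 to 4255 on controls and 3917 to 5107 on mutants. That of the hypertrophic markers was 502 to 773 on controls and 628 to 742 on mutants, with mutant 2 at 742. Of these 11 hypertrophic markers, 8 had a difference above 0, as did 21201 of all 35228 probes, with a median of 0.17. Their score differed by -0.05. Without control 1 and mutant 2, 5 of them were above 0 (16016 of all probes), with a median of -0.06. The part of the chondrocyte share in the Vegfa values was not tested.

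The 250 bases before the annotated start of Vegfa are shown here because both Vegfa probes had groups that did not overlap, and those of Kdr and Flt1 because these are the receptors that bind Vegfa. They come from RefSeq (GRCm38.p6), on the minus strand of chr17:46032378-46032627 for Vegfa, of chr5:75978456-75978705 for Kdr and of chr5:147726012-147726261 for Flt1, written 5′ to 3′ along the gene. Capitals mark matches, on either strand, to 5 short motifs. ACGTG and the related core GCGTG can be bound by hypoxia-inducible factors. GGGCGG is the GC box bound by Sp1, CCGGAA is a core bound by ETS factors, and AGATAA is a core bound by GATA factors.
Vegfa: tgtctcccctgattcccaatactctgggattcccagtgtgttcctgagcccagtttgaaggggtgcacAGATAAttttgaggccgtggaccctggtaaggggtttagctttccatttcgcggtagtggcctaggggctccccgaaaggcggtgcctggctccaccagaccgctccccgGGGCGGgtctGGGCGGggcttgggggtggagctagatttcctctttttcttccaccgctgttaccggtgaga
Kdr: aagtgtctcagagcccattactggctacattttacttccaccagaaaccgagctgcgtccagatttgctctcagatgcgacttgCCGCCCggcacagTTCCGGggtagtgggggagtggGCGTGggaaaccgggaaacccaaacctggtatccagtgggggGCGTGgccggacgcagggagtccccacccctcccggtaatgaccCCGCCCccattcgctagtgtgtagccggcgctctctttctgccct
Flt1: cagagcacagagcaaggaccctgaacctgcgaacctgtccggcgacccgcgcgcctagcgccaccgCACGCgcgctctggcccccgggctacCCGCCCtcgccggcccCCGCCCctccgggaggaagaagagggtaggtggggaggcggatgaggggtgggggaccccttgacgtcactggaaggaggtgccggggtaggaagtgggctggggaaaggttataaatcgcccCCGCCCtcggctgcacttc
The Vegfa window held 2 matches to GGGCGG and 1 to AGATAA. The Kdr window held 2 to GCGTG, 2 to GGGCGG and 1 to CCGGAA, and the Flt1 window held 1 to GCGTG and 3 to GGGCGG. No match in these windows overlapped another. Of 32851 mouse promoter windows of the same length, 16.6% held ACGTG, 28.2% GCGTG, 32.7% GGGCGG, 12.0% CCGGAA and 9.99% AGATAA. Entries for all 9 members were found, 11 in number, and GGGCGG was in at least 1 window of each gene. Vegfa and Pgf had 2 windows each, and 1 of the Pgf windows held no match. The 11 windows were 59.2% to 76.4% G and C, against a median of 52.4% over all windows. The part of base composition in these matches was not tested. CCGGAA was in the Kdr window alone, and ACGTG only in the window of a second Vegfa start (chr17:46025164-46025413).

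The other ligands did not share the pattern of Vegfa. Vegfb, a ligand of Flt1, read 0.30, -0.08 and 0.14 in controls and 0.16, 0.59 and 0.11 in mutants. Mutant 2 was again the highest array, but mutants 1 and 3 lay within the control range, and the difference of 0.17 (SE 0.18, 95% interval -0.27 to 0.60) was 0.01 without mutant 2. Pgf, placental growth factor, which binds Flt1, read -2.06, -1.91 and -2.10 in controls and -2.13, -2.34 and -2.23 in mutants. Its groups did not overlap, yet the difference of -0.21 (SE 0.12, 95% interval -0.51 to 0.09, unadjusted p 0.141) was small beside its error, and it was -0.11 with normexp background correction.

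Vegfc, the lymphangiogenic ligand of Flt4, varied most among the ligands. It read 1.47, 0.43 and -0.06 in controls and 0.01, -0.26 and 0.52 in mutants, so 1 control array stood far above all others. The control SD was 0.78 against 0.40 in mutants (n = 3 each), and the difference was -0.53 (SE 0.41, 95% interval -1.51 to 0.46). Without control 1 it was -0.10, and without control 1 and mutant 2 it was 0.08. Control 1 also had the highest score of neutrophil, erythroid (1.75) and skeletal muscle markers, cells that could be sampled with the tissue. Its scores of sinusoidal and lymphatic endothelium (0.67) and of pericytes and smooth muscle (0.51) were the highest too. Macrophage, osteoclast and pan-endothelial scores were highest on control 2. The summed linear signal of 9 neutrophil markers was 164 on control 1 and 14.9 to 76.9 on the other controls, against 12.1 to 27.6 on mutants, and that of 9 skeletal muscle markers was 698 on control 1 and 129 to 158 on the other controls, against 85.5 to 438 on mutants. Control 1 was also the only control with Xist above Ddx3y. The part of these cells and of sex in the Vegfc values was not tested.

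The receptors and neuropilins were lowest on mutant 2 for 7 of 7 probes, where 18.3% of all 35228 probes had their lowest value on that array. Mutants 1 and 3 both lay within the control range for 5 of these 7 probes. In a bulk tissue such as this, fewer cells of a type and less RNA per cell cannot be told apart.

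Flt1, the receptor for Vegfa, Vegfb and Pgf, read 2.32, 2.31 and 1.87 in controls and 1.97, 0.66 and 2.12 in mutants. Only mutant 2 lay outside the control range. The difference was -0.58 (SE 0.40, 95% interval -1.53 to 0.37, unadjusted p 0.191), and without mutant 2 it was -0.12.

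Kdr, the main signalling receptor for Vegfa, was measured by 2 probes that disagreed. The dimmer one (A_51_P316553) was printed on 10 spots, whose coefficient of variation within an array was 1.96% to 4.16%, so the error between spots was far below the spread between mice. Its mean intensities were 2132, 1793 and 1110 units on controls 1 to 3 and 1544, 546.5 and 1309 units on mutants 1 to 3. In log2 signal they were 1.85, 1.69 and 1.12 in controls and 1.29, -0.13 and 1.36 in mutants, and again only mutant 2 left the control range. The difference was -0.71 (SE 0.43, 95% interval -1.75 to 0.32, unadjusted p 0.146), and it was -0.23 without mutant 2 and -0.26 with slide row 1 alone. The brighter Kdr probe (A_55_P2094469, 1 spot) carries the same accession but read 3.63, 3.74 and 3.74 in controls and 3.67, 3.60 and 4.01 in mutants. Its values spanned a far narrower range, mutant 2 was still the lowest array, and the difference was 0.06 (SE 0.15, 95% interval -0.30 to 0.41). Where each probe lies in the transcript is not given in the files, and what sets the probes apart was not tested.

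**Figure D2:**
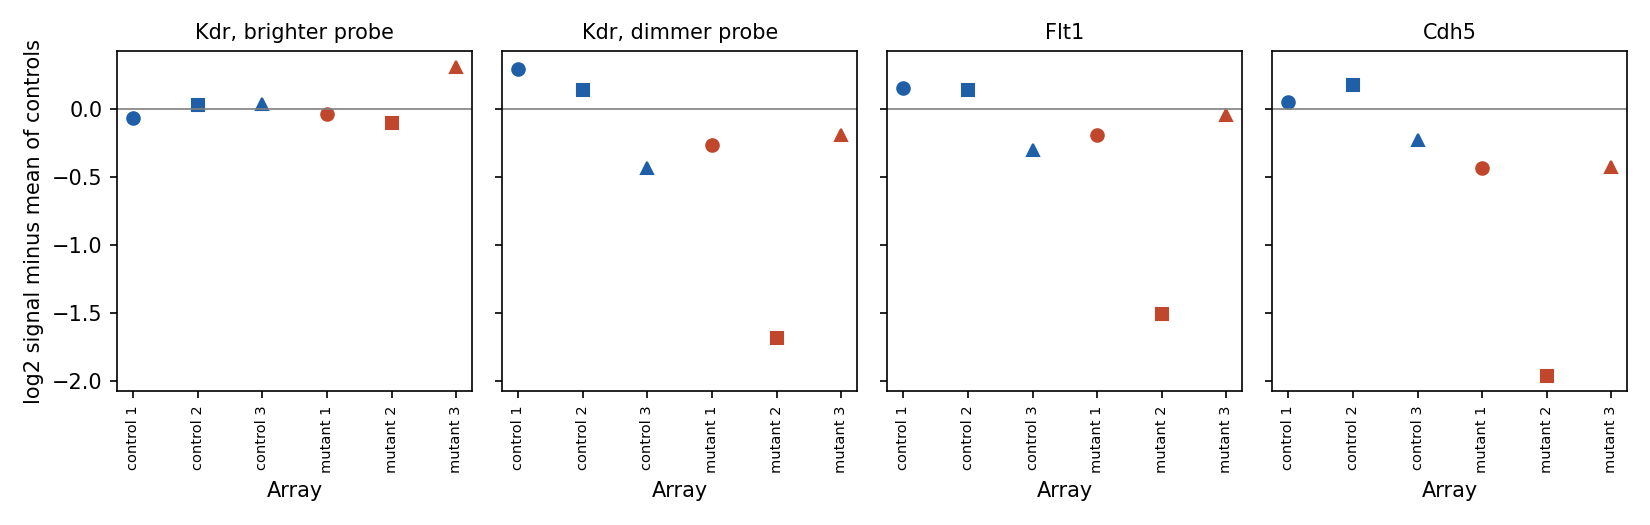
Log2 signal on each array minus the mean of the 3 controls (y axis) for both Kdr probes, Flt1 and the endothelial cadherin Cdh5, by array (x axis); blue points are controls and red points are mutants. The dimmer Kdr probe, Flt1 and Cdh5 have their lowest value on mutant 2, far from the other arrays (-0.13, 0.66 and -0.54 in log2 signal), while the brighter Kdr probe stays within 3.60 to 4.01.

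Flt4, the receptor of lymphatic and some sinusoidal endothelium, was close to background. It was well above background on 2 of 3 control arrays and 1 of 3 mutant arrays, with log2 signals of -4.86, -3.74 and -4.98 in controls and -4.67, -5.27 and -5.19 in mutants. The mutants differed by -0.52 (SE 0.36, 95% interval -1.38 to 0.34). This rested on control 2, without which the value was -0.13, and with normexp background correction it was -0.15. At this signal a change in Flt4 was not detectable.

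The 2 Nrp2 probes had the widest mutant spread of the 12 probes, with an SD of 1.15 and 1.61 (n = 3). Nrp2, a co-receptor for Vegfc and semaphorins, had a probe annotated to NM_001077403 that read 3.65, 4.48 and 4.37 in controls and 3.88, 2.08 and 4.21 in mutants. A second probe, annotated to NM_001077406, read 1.35, 2.10 and 2.30 in controls and 1.69, -0.75 and 2.28 in mutants. On both probes mutants 1 and 3 lay within the control range and mutant 2 lay far below it. The differences were -0.78 (SE 0.57, 95% interval -2.15 to 0.59) and -0.85 (SE 0.77, 95% interval -2.69 to 1.00), and without mutant 2 they were -0.12 and 0.07. Nrp1, a co-receptor for Vegfa and semaphorin 3A, read -0.79, -1.11 and -1.41 in controls and -1.04, -1.86 and -1.31 in mutants. Its difference was -0.30 (SE 0.26, 95% interval -0.92 to 0.32), and it turned to 0.07 with slide row 1 alone and to 0.09 without control 1 and mutant 2.

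**Figure D3:**
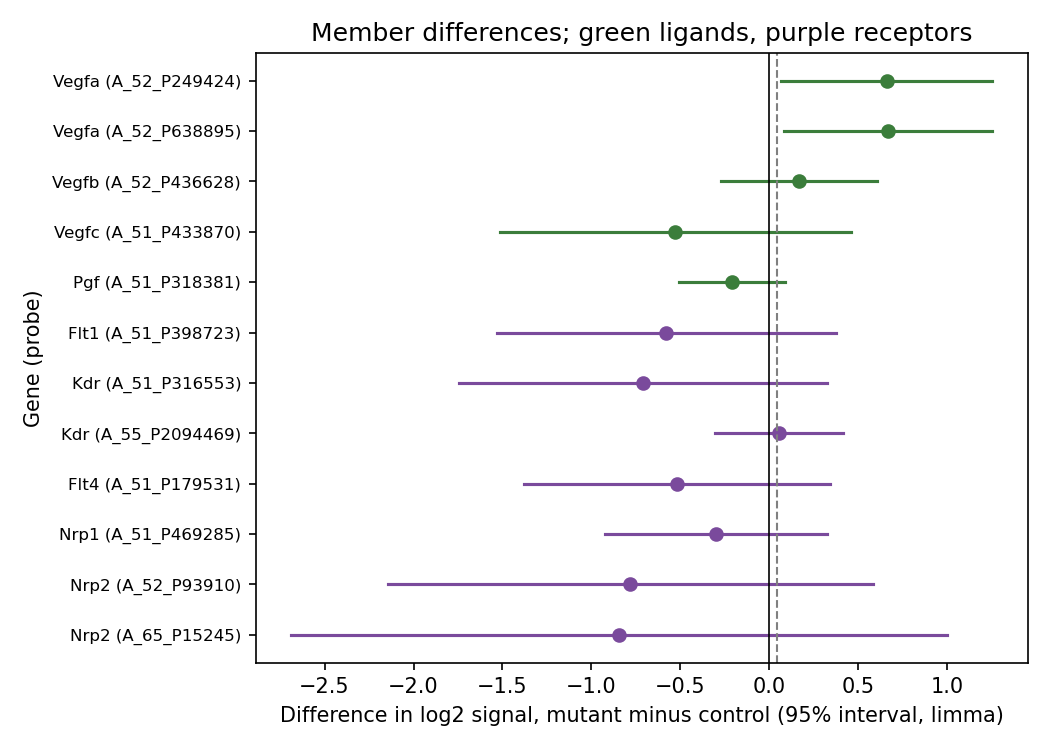
Difference in log2 signal between mutants and controls for each member probe (x axis, points) with its 95% interval from limma (lines), by gene and probe (y axis). Green marks ligands and purple marks receptors and neuropilins; the dashed line is the median of all probes tested, 0.04. The intervals of the 2 Vegfa probes lie above 0, and those of the other 10 probes include 0.

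Ligands and receptors were then compared as groups, each gene by its brightest probe. The 4 ligands had a median difference of -0.02, with 2 genes below 0 and 2 above, and the 5 receptors and neuropilins had a median of -0.52, with 4 below 0 and 1 above. That median is the value of Flt4, which was close to background, and with only probes above background on all 6 arrays, which leaves Flt4 out, it was -0.44; with normexp background correction it was -0.17. Over all 35228 probes the median was 0.04, and 39.8% were below 0. As a score, receptors minus ligands read -0.13, 0.58 and 0.22 in controls and 0.16, -0.94 and 0.10 in mutants. Mutants 1 and 3 lay within the control range, and mutant 2 lay below it. The control mean was 0.22 ± 0.35 and the mutant mean -0.22 ± 0.62 (SD, n = 3 each), -0.45 apart, and no test was made since the members were chosen with results known. Without mutant 2 the difference was -0.09 and the receptor median -0.12, without control 2 the difference was -0.27 and the receptor median -0.30, and on the 4 arrays other than control 1 and mutant 2 it was -0.27, with a receptor median of -0.04. With slide row 1 alone it was -0.06, with a receptor median of -0.14, and on the 4 arrays with Ddx3y above Xist it was -0.79. With Kdr taken by its dimmer probe, the difference was -0.60.

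Receptor signal was set beside that of endothelial cells, from which Flt1, Kdr and Flt4 are best known. The receptor score also holds Nrp1 and Nrp2, so the subtraction below is not a value per endothelial cell. All 23 pan-endothelial markers were measured, and 23 had a difference below 0 (39.8% of all probes), with 0 at an unadjusted p below 0.05, 7 with groups that did not overlap (3.51% of all probes lower in this way) and a median of -0.63. Without mutant 2, 22 of 23 were below 0 and the median was -0.20. The summed linear signal of these markers was 71.8 to 96.9 on controls, 72.1 and 81.1 on mutants 1 and 3, and 32.1 on mutant 2. Cdh5, the cadherin of endothelial junctions, differed by -0.94 (SE 0.42), Emcn, the sialomucin endomucin, by -0.86 (SE 0.37) and Pecam1, a junctional adhesion molecule, by -0.48 (SE 0.26). The receptor score minus the endothelial score was -0.28, 0.06 and -0.01 in controls and 0.02, 0.21 and 0.01 in mutants, a difference of 0.16. On mutant 2 the receptor score was -0.83 and the endothelial score -1.04. With Kdr by its dimmer probe, a choice made after seeing the data, the receptor score on mutant 2 was -1.07 and the difference of receptors minus endothelial markers 0.0035. Scores of several other cell types were also lowest on mutant 2: osteoclasts, macrophages, osteoblasts (-1.33), sinusoidal and lymphatic endothelium (-1.31), pericytes and smooth muscle (-0.75) and skeletal muscle (-2.41). The summed linear signal of the pericyte and smooth muscle markers was instead highest on mutant 2, at 98.3 against 83.6 to 96.3 elsewhere. Neutrophil and erythroid scores were lowest on other arrays, at -1.44 on mutant 1 and -1.21 on control 3, against -0.64 and -0.46 on mutant 2. All 11 osteoclast markers measured were below 0, 4 lower at an unadjusted p below 0.05, where 628 of all 35228 probes (1.78%) were. Without control 1 there were 2, beside 651 of all probes. Without control 1 and mutant 2 there were 8, beside 1050 of all probes. The summed linear signal of the 11 markers was 245.6 to 335.3 on controls and 36.5 to 169 on mutants. All 10 macrophage markers measured were below 0, 3 at an unadjusted p below 0.05, with sums of 31.8 to 40.5 on controls and 8.74 to 29.0 on mutants. On mutant 2 the osteoclast and macrophage scores were -1.75 and -1.61. The part of the cell mixture in the receptor values was not tested beyond this subtraction.

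**Figure D4:**
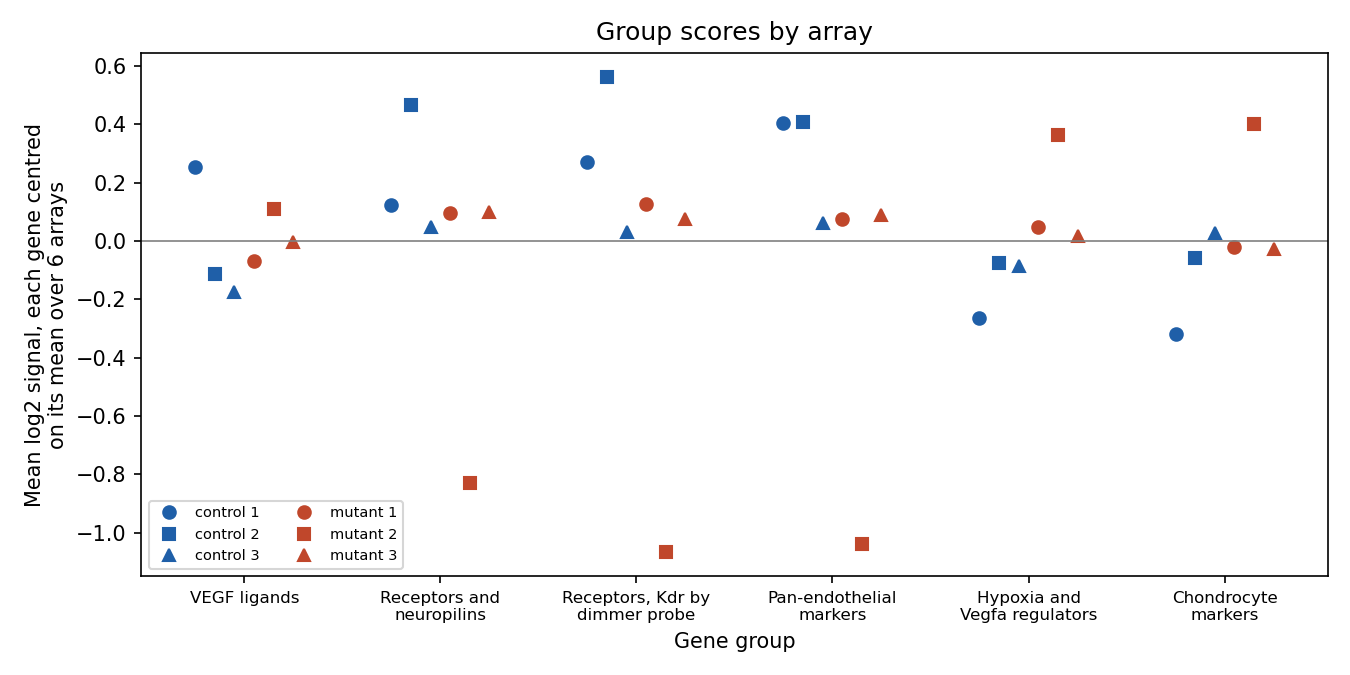
Mean log2 signal of each gene group on each array, with each gene centred on its mean over the 6 arrays (y axis), by group (x axis). Blue points are controls and red points mutants, marker shape gives the mouse number; mutant 2 (red square) is lowest for receptors (-0.83) and pan-endothelial markers (-1.04) and highest for hypoxia and Vegfa regulators (0.36) and chondrocyte markers (0.40).

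Genes that control Vegfa or respond to low oxygen with it mostly read higher in mutants, as Vegfa did. Of 18 genes in this list, 17 had a difference above 0, with a median of 0.21; over all probes 39.8% were below 0 and the median was 0.04, and the one list gene below 0 was Epas1, a hypoxia-inducible factor subunit, at -0.12. At an unadjusted p below 0.05, 4 were higher (1.66% of all probes) and 0 lower, and the groups did not overlap for 7, all higher (5.28% of all probes); 0 passed the adjusted threshold. Of the 17 chondrocyte markers, 15 were also above 0, with a median of 0.28, 0 at an unadjusted p below 0.05 and the highest score on the same mutant 2. Without mutant 2, 13 of these markers were above 0 (19093 of all 35228 probes), with a median of 0.10. Without control 1 and mutant 2, 9 were above 0 (16016 of all probes), with a median of 0.0026. The 4 hypoxia list genes below that p were Egln1 (0.48, SE 0.17), Egln3 (0.58, SE 0.20), Adm (0.61, SE 0.23) and Bnip3 (0.58, SE 0.23). Egln1 and Egln3 are prolyl hydroxylases that mark hypoxia-inducible factors for destruction, Adm is a vasoactive peptide and Bnip3 a mitophagy receptor. Egln3 read -1.32, -1.22 and -0.98 in controls and -0.81, -0.21 and -0.78 in mutants, with mutant 2 the highest array, as for Vegfa. Without mutant 2, 16 genes of the hypoxia list were above 0 (19093 of all 35228 probes), with a median of 0.15. At an unadjusted p below 0.05, 1 was higher (479 of all probes). Without control 1, 15 were above 0 (18565 of all probes) and 0 had an unadjusted p below 0.05 (674 of all probes higher, 651 lower). Without control 1 and mutant 2, 11 were above 0 (16016 of all probes), with a median of 0.12 (-0.02 over all probes). Here too 0 had an unadjusted p below 0.05 (1431 of all probes higher, 1050 lower). In these 3 settings the groups did not overlap for 7, 8 and 8 genes, all higher, beside 2842, 3485 and 5709 of all probes. Hif1a, the oxygen-regulated subunit itself, differed by 0.21 (SE 0.18), and Runx2, a bone transcription factor that acts on Vegfa, by 0.11 (SE 0.30); these 2 were chosen after their values were seen.

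Transcripts of the signalling chain below the receptors showed no common direction. Of 47 genes, 21 were below 0 and 26 above, with a median of 0.02, and 0 had an unadjusted p below 0.05. Among the genes with the smallest p-values were the adaptor Shc2 at -0.52 (SE 0.23) and the protein kinases C Prkcb at -0.75 (SE 0.34) and Prkca at 0.29 (SE 0.15). Vegfd, a lymphangiogenic ligand on this list, differed by 0.26 (SE 0.21), and the endothelial nitric oxide synthase Nos3 by -0.23 (SE 0.34), both named after their values were seen.

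Of 15 measured genes that VEGF induces in endothelium, 10 had a difference below 0. Their median was -0.26, and 0 had an unadjusted p below 0.05. Angpt2, a ligand that loosens vessels, read -1.04, -0.56 and -0.65 in controls and -1.19, -2.88 and -1.32 in mutants, a difference of -1.05 (SE 0.45). Its groups did not overlap, as for 3.51% of all probes in the lower direction, and mutant 2 again lay far below the rest. The apelin receptor Aplnr differed by -0.92 (SE 0.50), Plvap, a protein of endothelial fenestrae, by -0.61 (SE 0.35) and the phosphatase Dusp5, above background on 2 of 3 control arrays and 1 of 3 mutant arrays, by -1.08 (SE 0.55). Without mutant 2 the median was -0.07, and 2 genes were then lower at an unadjusted p below 0.05, as were 613 of all 35228 probes. Egr3 was on the array but at background on all 6 arrays.

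Among 15 semaphorins, plexins and other neuropilin partners, 9 were below 0, the median was -0.11, and 1 gene was lower at an unadjusted p below 0.05 (1.78% of all probes). This was Sema3g, a semaphorin of endothelium, at -0.46 (SE 0.18, unadjusted p 0.0421), with -2.96, -3.22 and -3.21 in controls and -3.75, -3.78 and -3.25 in mutants. Plxnd1, the plexin of endothelium, differed by -0.70 (SE 0.44), Plxna2 by -0.44 (SE 0.29) and Plxna1 by 0.31 (SE 0.18). Without mutant 2 the median of the list was 0.05 and without control 1 it was 0.08, and in both cases 0 genes were lower at an unadjusted p below 0.05.

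**Figure D5:**
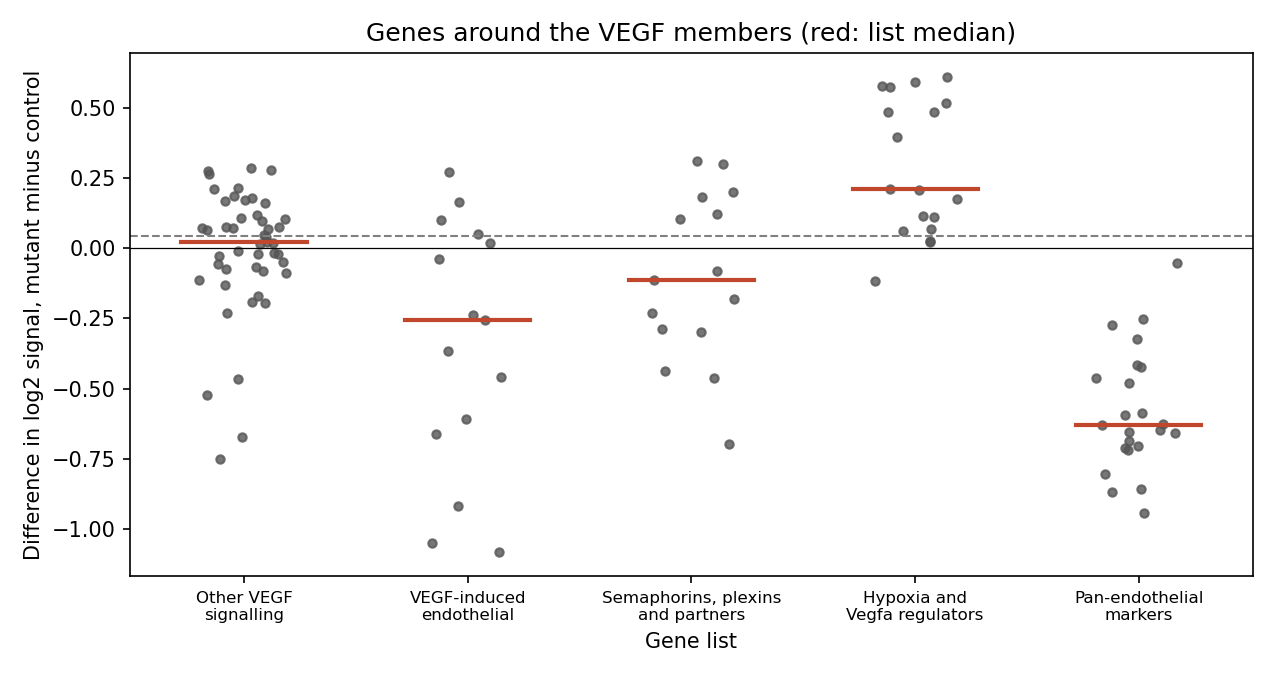
Difference in log2 signal between mutants and controls (y axis) for each measured gene of 5 lists around the VEGF members (x axis), with list medians as red lines and the median of all probes tested, 0.04, as a dashed line. Points of the pan-endothelial list all lie below 0 (median -0.63), and 17 of 18 of the hypoxia list lie above it (median 0.21).

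The genes whose log2 signal followed a member most closely over the 6 arrays were ranked by Pearson correlation among 15657 genes, as a description, since 6 arrays with 1 far from the rest give high values for many genes. Closest to Vegfa were 5930430L01Rik (r = 0.999), Ankrd42 (0.995), Dcaf5 (0.993), Rnf39 (0.992) and Clcn2 (0.992). The brighter Kdr probe was closest to Ptk7 (r = 0.995), Rrp1b (0.990), Dvl3 (0.990), Phf20l1 (0.988) and Ppp1r8 (0.984), and none of these 5 is on the endothelial list. The dimmer Kdr probe, ranked after its values were seen, was closest to Nxph3 (r = 0.998), Trim30a (0.997), Sox17 (0.996), Pf4 (0.996) and Ramp2 (0.995), of which Sox17 and Ramp2 are on the endothelial list.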

How the data were processed

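Cy3-labelled RNA of 3 control and 3 mutant mice was measured on 1-colour arrays, and groups were taken from the sample titles; the labels also name Cy5. The submitters' processing notes name Agilent Feature Extraction 10.7.1.1 for the scanner output. The deposited intensity values had background subtracted by Feature Extraction and were not normalized between arrays, per the file headers, which name the build mm9. In the value table deposited by the authors each entry is a linear ratio to its array's 75th percentile, which is 1 in every column (medians 0.094 to 0.104); this was read from the values, since no source used here gives its steps.

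Accessions were matched to RefSeq symbols (GRCm38.p6), giving a symbol for 27656 probes and none for 28025. Control and outlier spots were left out, spots of a probe averaged, and each array scaled to its 75th percentile in log2. Probes well above background (on more than 50% of their spots) on at least 3 of 6 arrays were kept, and 8 of 35236 had only outlier spots on some array and were left out. Differences were fitted in R 4.3.3 by limma 3.58.1 (lmFit, eBayes, two-sided, 4 residual degrees of freedom plus a prior of 2.52, Benjamini-Hochberg over all 35228 probes). The fit was also run on simulated data with capped, independent noise, no array far from the rest and differences larger than those of the members. That run checked the code and does not measure how the fit performs on these arrays. Precision is limited by the number of arrays.

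A gene in a list is its brightest passing probe. All member probes are named, and of other lists up to 4 genes of smallest p, of which 1 is not reported here; likeness is the 5 highest correlations. Members and lists were chosen with earlier results of these data known. Alternatives were background correction, normalization, the deposited value table, filters, probe choice, array weights, a replicate block, slide row, Y-linked signal and arrays left out. Arrays with the same replicate number in their titles were also compared.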

Additional observations from a re-analysis of the deposited data

How the results depend on the processing

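In all 18 alternatives that refitted the table, 0 member probes and 0 of all probes passed the adjusted threshold; the smallest adjusted p of a Vegfa probe in limma was 0.282, with array weights, against up to 1.00 in other settings. Of 212 refitted member differences, 203 kept their sign and 9 reversed, none of them of Vegfa, Vegfb, Pgf, Flt1, Flt4 or the dimmer Kdr probe. The brighter Kdr probe reversed to -0.0066 with array weights, -0.0378 with slide row 1 alone, -0.106 on arrays with Y-linked signal above Xist and -0.0718 without mutant 3; leaving out single arrays moved it from -0.0718 to 0.136. Nrp1 reversed to 0.0115 with array weights, 0.0695 with slide row 1 alone and 0.0864 without both control 1 and mutant 2. Without both of these arrays Vegfc reversed to 0.0765, and without mutant 2 the dimmer Nrp2 probe reversed to 0.0665, with a range of -1.45 to 0.0665 over single arrays left out. The cause of each was not tested.

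The count of 2 member probes higher at an unadjusted p below 0.05 became 1 with 1 probe per gene, where 1 Vegfa probe is left by construction, 1 on arrays with Y-linked signal, 1 without both control 1 and mutant 2, 0 with slide row 1 alone, where the mutant side is 1 array, and 0 with the replicate block. Leaving out single arrays gave 0 to 2. Without both control 1 and mutant 2 the ligand median was 0.0901, the receptor median -0.0381 and receptors minus endothelial markers -0.0087. On all 6 arrays with Kdr by its dimmer probe, an alternative added after seeing the data, receptors minus endothelial markers was 0.0035. With single arrays left out the ligand median ran from -0.07 to 0.08, the receptor median from -0.705 to -0.117, receptors minus ligands from -0.64 to -0.09 and receptors minus endothelial markers from 0.06 to 0.22. The receptor median was -0.17 with normexp and percentile scaling. Same-numbered control and mutant arrays had deviations that correlated at 0.18, 0.05 and -0.15, against -0.22 to 0.23 for arrays of unlike number. With 3 arrays per group, each centred on its group, these values cannot decide whether the mice were paired. Signal over background limits Flt4 most.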
